A study of Mus musculus with 6 samples.

Results

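The 10 genes described here belong to the BCL2 family, whose proteins decide at the mitochondrion whether a cell survives or dies. They were chosen by name from the 55487 genes of the count table: the survival genes Bcl2, Bcl2l1 and Mcl1, the effector genes Bax and Bak1, and the BH3-only genes Bcl2l11, Bid, Bad, Bmf and Pmaip1. RNA came from megakaryocyte-erythroid progenitors, the marrow cells that give rise to red cells and platelets, of wild-type C57BL/6 mice aged 8 weeks. There were 3 libraries of a control group and 3 of mice fasted for 6 h, and both groups shared strain, age and genotype. The study asked how short fasting acts on the making of red cells. The labels do not say whether a library was 1 mouse or a pool, nor what the control mice ate or when marrow was taken, so p-values measure only the spread between these libraries.

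In this family, the effectors BAX and BAK permeabilise the outer mitochondrial membrane and release cytochrome c, which starts the caspase cascade. BCL2, BCL-XL (the product of Bcl2l1) and MCL1 hold the effectors in check, and the BH3-only proteins bind the survival proteins through a short helix, the BH3 domain, and so free or activate the effectors. Erythroid precursors are known to need MCL1 early and BCL-XL later in their maturation, and BIM, the product of Bcl2l11, is a known mediator of blood cell death after loss of cytokine signals.

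The coding bases around the core of the BH3 domain are shown because they are the feature that joins survival, effector and BH3-only members. The pattern searched was a codon starting with CT, any 3 codons, a codon starting with GG and a codon starting with GA, in frame on the coding strand of the longest complete coding sequence of each gene in GENCODE M21, and capitals mark the fixed letters: the start of a leucine codon, then a glycine codon and the start of the codon after it.
Bcl2: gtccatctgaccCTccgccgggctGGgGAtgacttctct
Bcl2l1: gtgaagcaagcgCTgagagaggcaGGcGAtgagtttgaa
Mcl1: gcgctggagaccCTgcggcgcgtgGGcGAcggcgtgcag
Bax: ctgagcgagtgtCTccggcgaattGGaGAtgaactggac
Bak1: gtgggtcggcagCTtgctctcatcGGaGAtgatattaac
Bcl2l11: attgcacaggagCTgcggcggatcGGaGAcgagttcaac
Bid: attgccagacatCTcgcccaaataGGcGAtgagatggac

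These stretches of 39 bases begin at codon 90 of Bcl2, 86 of Bcl2l1, 190 of Mcl1, 59 of Bax, 72 of Bak1, 146 of Bcl2l11 and 86 of Bid. Pmaip1 held 2 matches, at stretches that begin at codons 23 and 74. The coding sequences of Bad and Bmf did not hold these letters. The letters alone are not particular to the family: they occurred in 21% of the 21562 coding sequences searched, against 8 of the 10 members.

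Total counts ranged from 22.4 to 30.2 M in the control libraries and from 12.8 to 18.2 M in the fasted ones. Odorant and vomeronasal receptor genes, which blood cells do not express, held 8.99 to 14.7 counts per kilobase in control and 14.2 to 15.97 in fasted libraries, and this rate is called the background. Over all exons it would make up 3.90 to 8.60% of counts in control and 11.5 to 14.6% in fasted libraries. Genes were therefore tested where their mean count was at least 5 times the background, which 10635 genes met. CPM below is the depth-scaled count, the count divided by library size in M after TMM scaling over those genes. Of the progenitor markers 9 of 10 met this level (Gata1, Gata2, Klf1, Tal1, Epor, Kit, Nfe2, Itga2b and Gfi1b), and the 10 together summed to between 1532 and 3389 CPM in control and between 1912 and 2305 CPM in fasted libraries. The 10 granulocyte and monocyte markers summed to 3553, 11951 and 18357 CPM in control libraries 1, 2 and 3 and to between 1767 and 4425 CPM in fasted libraries. All 10 had a negative log2 fold change, with a median of -1.33, and the groups overlapped for each. In edgeR 5 were lower at an unadjusted p under 0.05, against 8.3% of all genes tested, and 0 passed an adjusted p under 0.05. DESeq2 called 1 of the 10, against 4.72% of genes. The 5 platelet markers summed to 142, 145 and 130 CPM in control and to 118, 113 and 85.3 CPM in fasted libraries, without overlap. Of the 3 tested, DESeq2 called 1 lower, Pf4, against 1.65% of all genes tested. Within these sums Pf4 had a mean of 90.4 CPM in control and 49.7 CPM in fasted libraries (edgeR log2 fold change -0.86, SE 0.25, adjusted p 0.154). The other tested ones, Gp9 and Itgb3, had positive log2 fold changes, 0.07 and 0.29 (edgeR adjusted p 0.914 and 0.450). Ppbp and Gp1bb lay at 2.42 and 0.152 times the background. The part of granulocytes, monocytes and platelets in the members' values was not tested. None of the 36 markers of all cell types was at 0 in any library. Of the receptor genes, however, 94.6 to 98.0% also had a count in each library. A count above 0 therefore does not show that a cell type was present.

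Of the 10 members 8 were tested, and Bak1 and Bmf lay below the level. In edgeR's quasi-likelihood test with Benjamini-Hochberg adjustment 0 of the 8 passed an adjusted p under 0.05, beside 0% of all genes tested. At an unadjusted p under 0.05 stood 1 of the 8, Bcl2l11, against 19.8% of genes tested. DESeq2 called 1 of the 8, Bcl2l11, where it called 4.72% of genes in either direction and 3.07% higher, and limma-voom called 0, as it did over all genes tested (0%). The median log2 fold change of the 8 was -0.08, beside 0.02 over all genes tested. Without overlap between groups was 1 of the 8, against 27.3% of genes tested, and it was Bcl2l11, higher in fasted libraries as were 14.4% of genes. Of the 8, 0 lay wholly lower, as did 12.9% of genes.

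**Figure D1:**
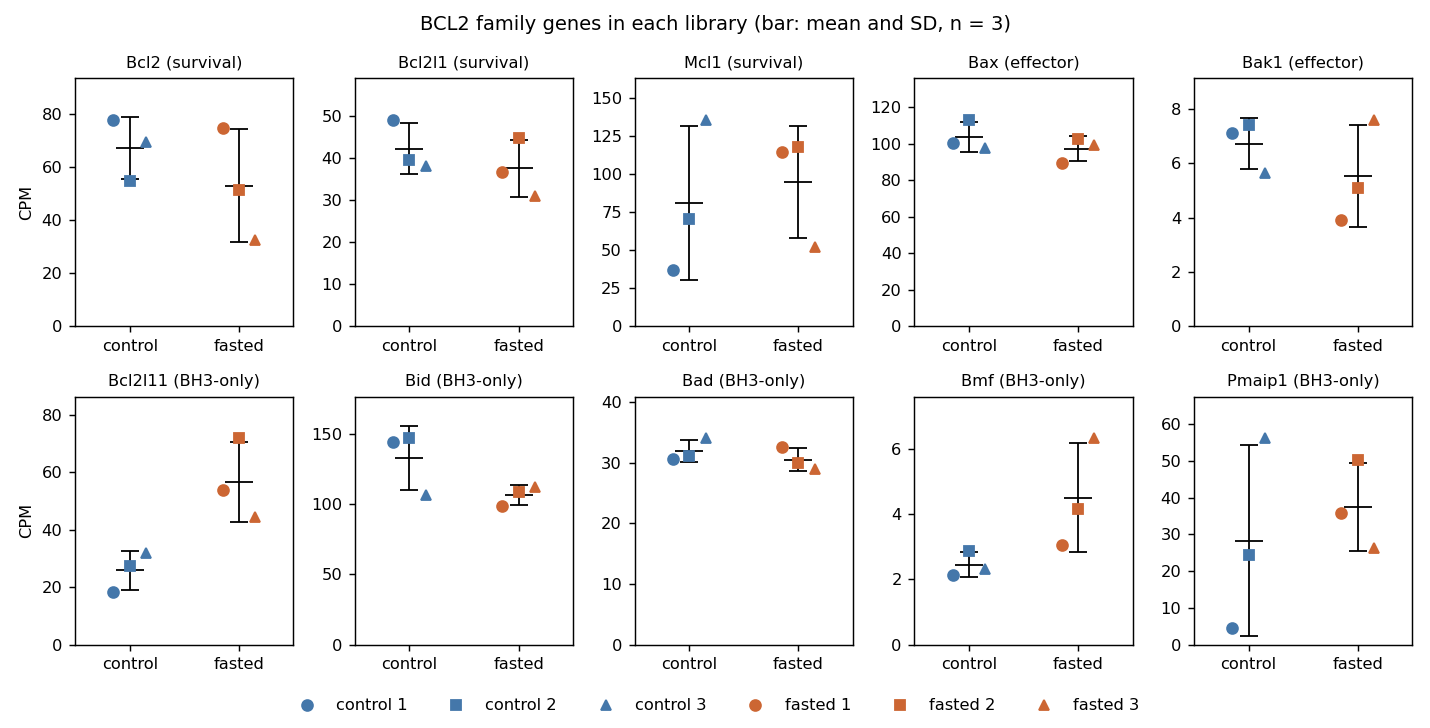
CPM of each of the 10 genes (vertical axis, from 0) in control and fasted libraries, with a symbol for each library and the group mean and SD (n = 3). All 3 fasted libraries lie above the control libraries for Bcl2l11, at 44.2 CPM or more against 31.7 or less, while Mcl1 and Pmaip1 spread widely among the control libraries.

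Of the 8 tested members Bcl2l11 had the log2 fold change farthest from 0 in this fit. Bcl2, Bcl2l1 and Bid were farther from 0 in the fits with all filtered genes scaled together and with no filter. Bax was also farther from 0 with no filter, as was Pmaip1 when control library 3 was left out. Bcl2l11 encodes BIM, a BH3-only protein that binds all the survival proteins (ENSMUSG00000027381.16, chromosome 2, 128126038 to 128162547, plus strand, GRCm38). It had 18.3, 27.4 and 31.7 CPM in control libraries 1, 2 and 3, and 53.8, 71.8 and 44.2 CPM in fasted libraries 1, 2 and 3. Each fasted library was higher than each control library. The means were 25.8 CPM ± 6.89 and 56.6 CPM ± 14.0 (SD, n = 3 each). The fitted difference was 1.14 on the log2 scale (SE 0.25), which is 2.197-fold. Its edgeR adjusted p was 0.131. The adjusted p was 0.00505 with DESeq2, and 0.0291 in the edgeR fit of all 36508 genes that pass edgeR's filter on low counts, scaled as here, where 13.7% of genes were called higher. That last fit rests on single libraries: it called 5245 genes, but with control library 1, 2 or 3 left out it called 1503, 6 and 9829, and with fasted library 1, 2 or 3 left out 53, 4918 and 0. In it Bcl2l11 had adjusted p from 0.0157 to 0.135 with 1 library left out, and its call was lost when control library 2 was left out, and likewise for fasted libraries 1 and 3. With another scaling of those 36508 genes, by factors from all of them, the log2 fold change of Bcl2l11 was 0.67 (edgeR adjusted p 0.102), where genes that met the level used here had a median of -0.50.

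Raw counts of Bcl2l11 were 512, 648 and 628 in the control group against 619, 1126 and 587 in the fasted group, from fasted libraries of fewer total counts. They stood at 5.32 to 7.10 times the background in control and at 4.92 to 8.78 times in fasted libraries, so background could hold up to 20.3% of the counts in a library. After the background was subtracted the log2 fold change came to 1.23 (SE 0.28, edgeR adjusted p 0.195). With 1 library left out in turn it lay between 0.90 and 1.29. In bulk RNA, a change in the share of a cell type and a change in RNA per cell cannot be told apart. Lymphocytes also express Bcl2l11: the 6 B lineage markers summed to 63.9, 110 and 92.7 CPM in control and to 200.1, 137 and 88.0 CPM in fasted libraries. The 5 T and NK markers, none of which met the level for testing, summed to 8.66 to 16.2 CPM in control and 26.1 to 37.9 CPM in fasted libraries. By mean count they stood at only 0.91 to 2.66 times the background. With this scaling the median log2 fold change of all 36508 filtered genes was 0.82, so their sum does not show more lymphocytes. The part of lymphocytes in the Bcl2l11 difference was not tested.

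The Bcl2l11 promoter is shown because this gene alone did not overlap between groups among the tested members and because BIM is a textbook target of FOXO proteins, forkhead factors that become active when insulin signalling drops. The forkhead core TGTTTAC was searched on both strands in 15 promoter windows of 9 members (RefSeq, GRCm38.p6, 250 bases before to 50 after each start; Pmaip1 had no entry). It was found in 1 window, the upstream one of 2 for Bcl2l11, and in 3.65% of all 32851 windows. The match, in capitals, reads GTAAACA and begins 227 bases before the start. The 250 bases before the start, at chr2:128125788-128126037 on the plus strand, are given here.
Bcl2l11 promoter: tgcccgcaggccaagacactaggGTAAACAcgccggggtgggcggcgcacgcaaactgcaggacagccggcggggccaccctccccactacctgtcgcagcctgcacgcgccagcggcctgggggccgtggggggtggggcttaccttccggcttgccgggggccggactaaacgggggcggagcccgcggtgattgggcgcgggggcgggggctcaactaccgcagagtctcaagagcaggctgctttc

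The E-box letters CACGTG, searched in the same way, were found in 1 member window, that of Bax, 9 bases before the start and again within the 50 bases after it, and in 7.15% of all windows. A match describes the letters of a window and is no evidence that a factor binds there.

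Bid encodes a BH3-only protein that caspase-8 cleaves, which links death receptors to mitochondria (ENSMUSG00000004446.12, chromosome 6, 120891930 to 120916853, minus strand). It had 144, 147 and 106 CPM in control and 98.7, 109 and 112 CPM in fasted libraries. Control libraries 1 and 2 were above all fasted libraries, and control library 3 lay among them. The means were 132 CPM ± 22.7 and 106 CPM ± 6.98 (SD, n = 3 each). The fitted log2 difference was -0.31 (SE 0.15, edgeR adjusted p 0.286). In the edgeR fit of all filtered genes scaled over all of them Bid was called lower, at -0.85 with an adjusted p of 0.0464. That fit called 3.82% of genes lower, and in it the genes that met the level used here had a median of -0.50. Bid overlaps Bcl2l13, another family gene, and the pseudogene Gm17812 on the other strand, and Gm44260 on the same strand. The handling of strand in counting is not given in the sources used here.

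Bad, whose product is held by 14-3-3 proteins while survival signals last (ENSMUSG00000024959.14, chromosome 19, 6941861 to 6951899, plus strand), was the steadiest BH3-only member. It had 30.5, 31.1 and 34.0 CPM in control and 32.6, 29.8 and 28.9 CPM in fasted libraries, so the groups overlapped. The log2 fold change came to -0.07 (SE 0.16, edgeR adjusted p 0.838), and it was 0.0010 with upper-quartile factors, where the median of all genes was 0.09, and 0.01 with a level of 10 times the background. Bad overlaps Gpr137 on the other strand.

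Bmf encodes a BH3-only protein tied to the cytoskeleton (ENSMUSG00000040093.16, chromosome 2, 118528757 to 118549687, minus strand, M21 position under another version of the gene). It had 60, 68 and 46 counts in control and 35, 65 and 84 in fasted libraries, which is 0.60 to 1.27 times the background in control and 0.47 to 1.08 times in fasted libraries. Its counts were thus at the level of genes that blood cells do not express. In CPM it had 2.14, 2.88 and 2.32 in the control group against 3.04, 4.15 and 6.33 in the fasted group, which do not overlap. In the fit of all filtered genes scaled as here its log2 fold change came to 0.88 (SE 0.43, edgeR adjusted p 0.130), where the median of all 36508 genes was 0.82.

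Pmaip1 encodes NOXA, a BH3-only protein that binds MCL1 (ENSMUSG00000024521.8, chromosome 18, 66458533 to 66465565, plus strand). It had 4.49, 24.3 and 56.3 CPM in control and 36.0, 50.2 and 26.2 CPM in fasted libraries. The control libraries differed 12.5-fold among themselves and enclosed all fasted libraries. The log2 fold change came to 0.41 (SE 0.85, edgeR adjusted p 0.814), and without control library 1 it was -0.10.

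**Figure D2:**
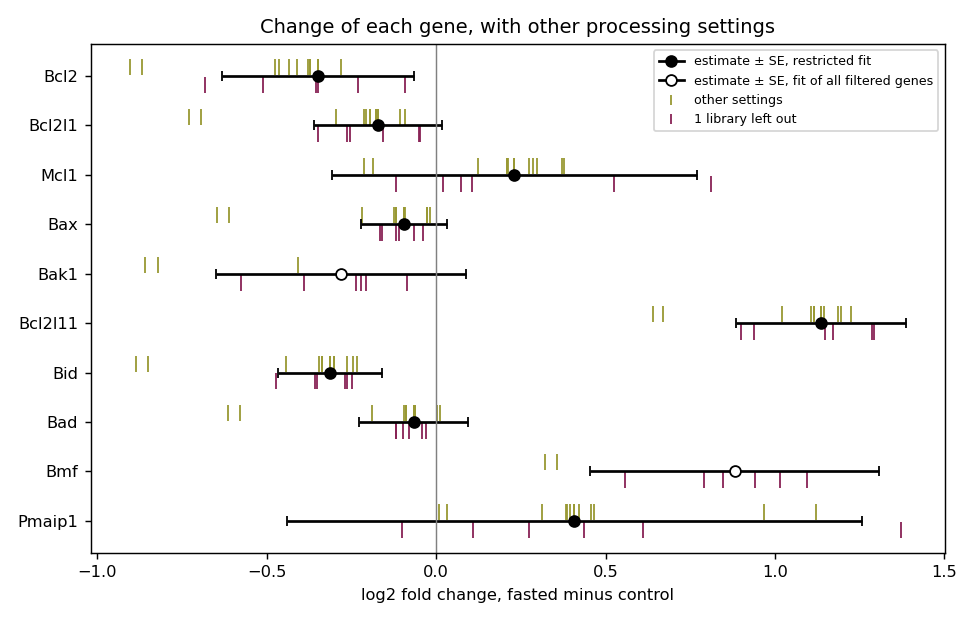
Log2 fold change of each gene, fasted minus control (horizontal axis), with its SE; open circles mark Bak1 and Bmf, tested in the fit of all filtered genes. Small marks give the value under other processing settings and with 1 library left out. Those of Bcl2l11 lie between 0.64 and 1.29, and those of Mcl1, Pmaip1 and Bad fall on both sides of 0.

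Among the survival genes, Mcl1 encodes a short-lived protein (ENSMUSG00000038612.16, chromosome 3, 95658788 to 95663176, plus strand). It had 36.7, 70.3 and 136 CPM in control and 115, 118 and 52.2 CPM in fasted libraries. Control libraries 1 and 3 were the lowest and the highest of all 6. The log2 fold change came to 0.23 (SE 0.54, edgeR adjusted p 0.834), and it was -0.19 when all filtered genes were tested and scaled together, -0.21 with no filter, and -0.12 without control library 1. In the fits with all filtered genes and with no filter, the genes that met the level used here had medians of -0.50 and -0.54, so Mcl1 lay above the median in both.

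Bcl2l1 encodes BCL-XL, the survival protein of maturing erythroid cells (ENSMUSG00000007659.18, chromosome 2, 152780668 to 152831728, minus strand). It had 49.2, 39.5 and 38.2 CPM in control and 36.8, 44.8 and 31.1 CPM in fasted libraries, and the groups overlapped. The log2 fold change came to -0.17 (SE 0.19, edgeR adjusted p 0.634). The counts do not tell its long from its short splice form, whose products act in opposite ways.

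Bcl2, the founding survival gene of the family (ENSMUSG00000057329.7, chromosome 1, 106538178 to 106714274, minus strand), had 77.8, 54.7 and 69.2 CPM in control and 74.8, 51.4 and 32.3 CPM in fasted libraries. Fasted library 3 was the lowest, and the other fasted libraries lay within or next to the control range. The log2 fold change came to -0.35 (SE 0.28, edgeR adjusted p 0.513). It was -0.09 without fasted library 3, and -0.90 with an edgeR adjusted p of 0.0369 when no filter on low counts was used. That fit called 4.19% of genes lower, and the genes that met the level used here had a median of -0.54 in it. Bcl2 overlaps Mir3473f and Gm37053 on the same strand and D630008O14Rik on the other strand.

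Bax, the gene of the main effector by level, varied little among libraries (ENSMUSG00000003873.11, chromosome 7, 45461697 to 45466898, minus strand, overlapping the gene model Gm45808 on the same strand). It had 101, 113 and 97.6 CPM in control and 89.5, 103 and 99.2 CPM in fasted libraries. The highest library exceeded the lowest 1.16-fold in control and 1.15-fold in fasted libraries, and the groups overlapped. Its log2 fold change came to -0.09 (SE 0.13, edgeR adjusted p 0.699).

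Bak1, the gene of the other effector (ENSMUSG00000057789.14, chromosome 17, 27019810 to 27029009, minus strand, overlapping Ggnbp1 on the other strand), was close to the background. It had 200, 175 and 112 counts in control and 45, 80 and 101 counts in fasted libraries. These are 3.17 to 9.25 times the background in control and 1.31 to 2.82 times in fasted libraries. In CPM it had 7.13, 7.41 and 5.66 in the control group against 3.91, 5.10 and 7.61 in the fasted group, which overlap. In the fit of all filtered genes scaled as here its log2 fold change came to -0.28 (SE 0.37, edgeR adjusted p 0.558), where the median of all 36508 genes was 0.82.

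To compare levels between genes, CPM were divided by exonic length in kilobases. In control libraries Bax stood highest, at 65.9 CPM per kilobase ± 5.25 (SD, n = 3), above Bid at 37.3 ± 6.39, without overlap. Mcl1 followed at 23.7 ± 14.8, Bad at 12.5 ± 0.726, Pmaip1 at 10.4 ± 9.56 and Bcl2l1 at 9.22 ± 1.31, and from Bid to Bcl2 at 7.34 ± 1.28 each gene overlapped the next in its range over libraries. Bcl2l11 at 3.21 ± 0.858 lay below Bcl2 in every control library and overlapped Bak1 at 2.80 ± 0.391. Bmf was lowest, at 0.466 ± 0.0734.

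In fasted libraries Bcl2l11 stood at 7.05 CPM per kilobase ± 1.74 and Bcl2 at 5.77 ± 2.33 (SD, n = 3 each). Bcl2l11 was thus above Bcl2 in 2 of 3 fasted libraries, where it had been below it in 3 of 3 control libraries. Bax stayed highest, at 61.7 ± 4.36, followed by Bid at 29.999 ± 1.97 and Mcl1 at 27.8 ± 10.8, which overlapped. Bak1 at 2.30 ± 0.785 and Bmf at 0.858 ± 0.319 were again lowest.

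**Figure D3:**
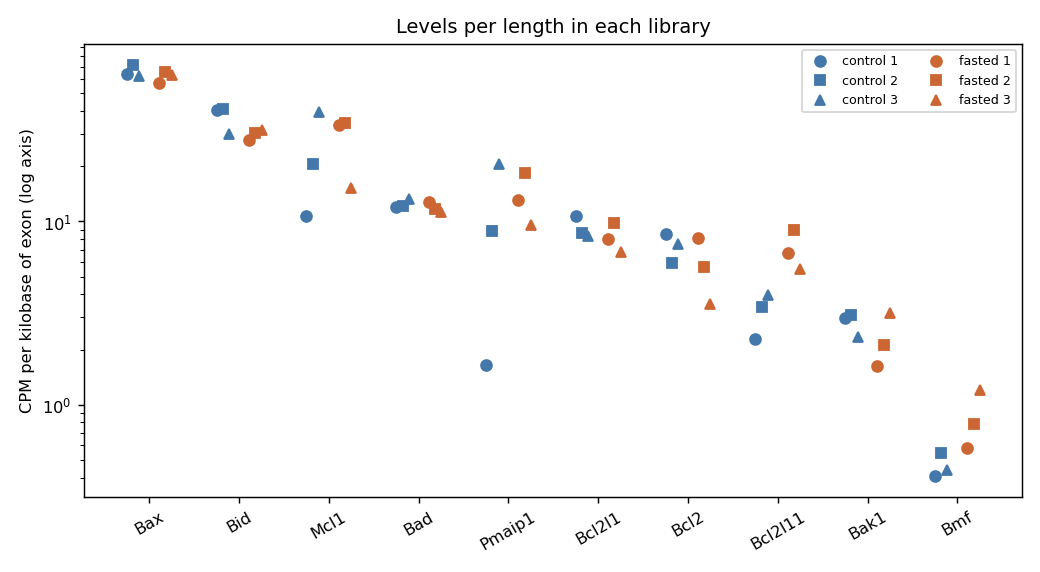
CPM per kilobase of exon on a log axis for each gene and library, ordered by the control mean. Bax lies highest in all 6 libraries and Bmf lowest, and the fasted libraries of Bcl2l11 reach the range of Bcl2.

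Summed by role, the 5 BH3-only genes held 37.0% ± 0.684 of the family's CPM per kilobase in control and 37.6% ± 1.60 in fasted libraries (SD, n = 3 each). The 2 effectors held 40.0% ± 5.09 and 38.1% ± 5.00, nearly all of it Bax. The 3 survival genes held 19.5, 19.9 and 29.6% in the control group against 29.4, 26.6 and 16.9% in the fasted group. This share was highest in control library 3 and fasted library 1 and lowest in fasted library 3, and the groups overlapped for each role.

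Ratios between members within a library do not depend on scaling between libraries. Counts per kilobase of Bcl2l11 to Mcl1 stood in the ratio 0.212, 0.166 and 0.0995 in the control group and 0.1995, 0.260 and 0.361 in the fasted group. Fasted libraries 2 and 3 were above all control libraries, and fasted library 1 lay among them. The mean log2 difference was 0.81 (two-sided exact permutation test, p = 0.2, adjusted over 4 ratios 0.667), where 0.1 is the smallest p that 3 against 3 libraries allow.

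The ratio of Bcl2l1 to Bcl2 was 1.26, 1.44 and 1.10 in the control group against 0.981, 1.74 and 1.92 in the fasted group (exact permutation p = 0.5). The ratio of Mcl1 to Bcl2l1 was 1.00, 2.39 and 4.77 in the control group against 4.19, 3.53 and 2.26 in the fasted group (exact permutation p = 0.7), and the sign of its difference turned without control library 1. Bax to Bak1 gave 21.5, 23.3 and 26.3 in the control group against 35.0, 30.8 and 19.9 in the fasted group (exact permutation p = 0.5). The groups overlapped for all 4 ratios. After subtraction of the background the log2 difference of Bax to Bak1 moved from 0.23 to 1.10 (exact permutation p = 0.2), where background could hold up to 76.1% of the Bak1 counts of a library.

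**Figure D4:**
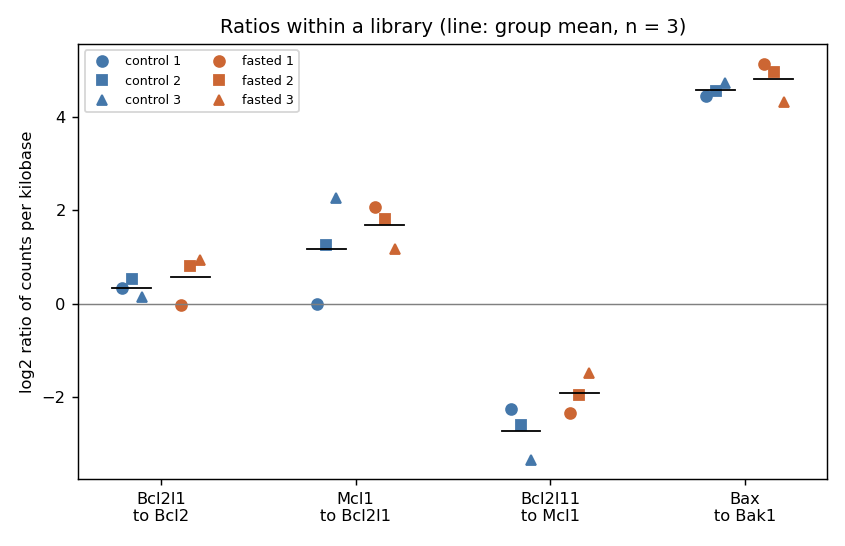
Log2 ratio of counts per kilobase for 4 pairs of genes in each library, with a line at each group mean (n = 3). The groups overlap for every pair; Bcl2l11 to Mcl1 has a mean difference of 0.81.

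Mcl1, Pmaip1 and Bcl2l11 ranked the libraries alike: control library 1 was below 2 and 2 below 3, and fasted library 3 was below 1 and 1 below 2. Of all genes tested 6.45% had this order. Among the other pathway genes it was found in Apaf1, Huwe1, Ywhaz, Birc3 and Bbc3. Bbc3, which encodes the BH3-only protein PUMA, had 6.10, 24.8 and 40.5 CPM in control and 36.9, 41.3 and 22.6 CPM in fasted libraries, and Birc3, an inhibitor of apoptosis, had 26.7, 43.1 and 67.5 against 83.0, 87.3 and 42.5 CPM. Genes of the immediate early response, chosen after the data were seen, were also low in control library 1. Egr1 had 171, 1260 and 1540 CPM in control and 2113, 1815 and 1316 CPM in fasted libraries, and Fosb 90.7, 444 and 698 against 991, 1074 and 634 CPM. The summed level of Fos, Fosb, Jun, Junb, Egr1 and Ier2 was 2046, 6493 and 6389 CPM in the control group against 8736, 8294 and 7770 CPM in the fasted group. Their part in the values of the members was not tested.

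**Figure D5:**
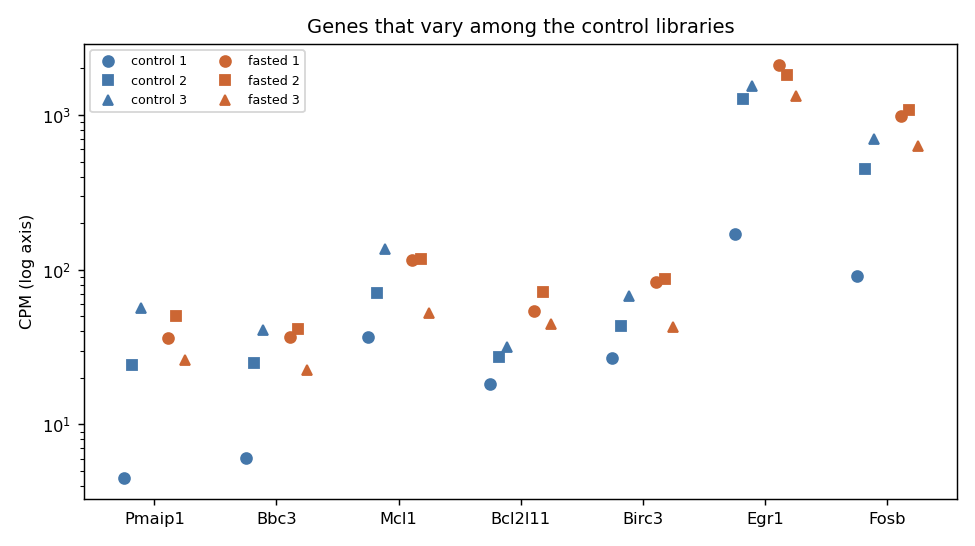
CPM on a log axis of 4 BCL2 family genes, Birc3 and the immediate early genes Egr1 and Fosb in each library. Control library 1 is the lowest of the 6 for each gene, at 4.49 CPM for Pmaip1 and 171 CPM for Egr1.

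Other genes of the death pathway were read from lists of known members. Of 15 further BCL2 family genes 5 met the level for testing, with a median log2 fold change of -0.05, and edgeR called 0 of them. At an unadjusted p under 0.05 stood 2, 1 higher and 1 lower, against 11.5% and 8.3% of all genes tested. DESeq2 called 0, against 4.72% of genes. Bnip3, a mitophagy receptor with a BH3-like stretch, had 27.6, 20.3 and 20.1 CPM in control and 12.4, 16.4 and 13.7 CPM in fasted libraries, which do not overlap (log2 fold change -0.68, SE 0.23, edgeR adjusted p 0.170). Bcl2l13, another mitophagy receptor, had 128, 152 and 129 CPM in control and 153, 181 and 182 CPM in fasted libraries (0.33, SE 0.13, edgeR adjusted p 0.218). The survival genes Bcl2l2, Bcl2a1a, Bcl2a1b and Bcl2a1d were not tested for their low counts, and the last 3 are close copies that can lose reads to each other.

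Of 12 caspase and apoptosome genes 10 were tested, with a median log2 fold change of -0.07. EdgeR called 0. At an unadjusted p under 0.05 stood 3, all lower, against 8.3% of all genes tested, and DESeq2 called 2 lower, Casp8 and Cycs, against 1.65%. Without overlap were 3 lower and 1 higher, against 12.9% and 14.4% of all genes tested. The 1 higher was Apaf1, which encodes the scaffold of the apoptosome, with 38.7, 48.7 and 53.6 against 57.97, 59.2 and 55.2 CPM (log2 fold change 0.29, SE 0.16, edgeR adjusted p 0.341), and it was named after its values were seen. Casp8, the protease that cleaves BID, had 133, 92.5 and 108 CPM in control and 75.3, 59.4 and 56.5 CPM in fasted libraries. Every fasted library was below every control library, with a log2 fold change of -0.80 (SE 0.18, edgeR adjusted p 0.131, DESeq2 adjusted p 0.00808). Cycs, the gene of cytochrome c, had 248, 230 and 239 CPM in control and 159, 177 and 184 CPM in fasted libraries (-0.46, SE 0.11, edgeR adjusted p 0.131, DESeq2 adjusted p 0.0260).

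Among 6 inhibitors of apoptosis and decoys 5 were tested, and among 7 death receptor genes 5. EdgeR called 0 in each list, as it did over all genes tested (0%). In each list 0 stood at an unadjusted p under 0.05, against 19.8% of all genes tested. DESeq2 called 0 in each, against 4.72% of genes. The median log2 fold changes were 0.10 and -0.29. Of 11 partners and turnover factors of the members 10 were tested. EdgeR called 0 of them, and DESeq2 called 0, against 4.72% of genes. Among them 4 stood at an unadjusted p under 0.05, 1 higher and 3 lower, against 11.5% and 8.3% of all genes tested. The median of the 10 was 0.01. Without overlap between groups were 2 higher and 4 lower, against 14.4% and 12.9% of all genes tested. Fbxw7, part of a ligase that marks MCL1 for decay, had 17.96, 25.6 and 24.6 CPM in control and 37.9, 32.6 and 36.3 CPM in fasted libraries (0.65, SE 0.20, edgeR adjusted p 0.155). The 14-3-3 genes Ywhaz and Ywhae, whose products hold phosphorylated BAD, had log2 fold changes of -0.39 (SE 0.18) and -0.37 (SE 0.13), with edgeR adjusted p of 0.265 and 0.174, and were lower in every fasted library than in any control library.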

How the data were processed

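Polyadenylated RNA of sorted progenitors was sequenced in bulk, per the labels' protocols. What the authors deposited is a single file of unnormalised gene-level counts, with exonic lengths. The submitters' processing notes name HISAT2 2.2.1, featureCounts 2.0.1 and GRCm38; annotation, strand and read filters are not given in the sources used here. Of 55487 gene identifiers 55227 matched GENCODE M21 without regard to version. Genes had to pass filterByExpr and reach a mean count of 5 times the background, the counts per kilobase over 1422 receptor genes. With factors from all filtered genes, the median log2 fold change of these genes was -0.50. TMM and edgeR 4.0.16 (glmQLFit, robust, group only; R 4.3.3) followed, with Benjamini-Hochberg adjustment over all 10635 genes and a threshold of 0.05; the SE is the log2 fold change divided by the root of F. Ratios used exact permutation tests (scipy 1.17.1). Alternatives were DESeq2 1.42.0, limma-voom 3.58.1, other scalings, filters, the replicate block and leaving out each library. The code was tested on simulated data. Members, lists and the restricted fit were chosen with earlier results of these data known. All 10 members were named. From each pathway list, up to 3 genes with the largest log2 fold change were named among those whose groups did not overlap. Apaf1, Bbc3, Birc3, Pf4, the other platelet markers and the immediate early genes were named after their values were seen. Some items that this rule names are not reported here.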

Additional observations from a re-analysis of the deposited data

How the results depend on the processing

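The edgeR fit called 0 genes, with 2109 at an unadjusted p under 0.05. DESeq2 called 502, a level of 3 times the background 6, the fit of all filtered genes 1813, the same genes with the scaling used here 5245 (chosen after seeing the data), and no filter 2849. Leaving out 1 library gave 0 to 9829 in the fit that called 5245, and in the restricted fit 0 to 3, with 3 without control library 1 and 3 without control library 3. Of the members, DESeq2 called 1 (Bcl2l11), the fit of all filtered genes 1 (Bid), the same genes with the scaling used here 1 (Bcl2l11) and no filter 2 (Bid and Bcl2); leaving out 1 library from the restricted fit gave 0 to 0. Bcl2l11 was higher under all 18 alternatives run on it, from 0.64 to 1.29, with adjusted p from 0.00505 to 0.348; a level of 10 times the background leaves it out, and Bcl2 too. Bcl2l1, Bax and Bid kept a negative sign under all 19 and Bcl2 under all 18. Signs turned for Mcl1 (-0.19 with all filtered genes, -0.21 with no filter, -0.12 without control library 1), Bad (0.0113 at 10 times the background, 0.0010 with upper-quartile factors) and Pmaip1 (-0.10 without control library 1); leaving out 1 library gave Mcl1 -0.12 to 0.81 and Pmaip1 -0.10 to 1.37. Ratio differences with 1 library left out ranged from 0.05 to 0.54 for Bcl2l1 to Bcl2, -0.069 to 1.06 for Mcl1 to Bcl2l1, 0.50 to 1.05 for Bcl2l11 to Mcl1 and 0.07 to 0.47 for Bax to Bak1. The genes of the restricted fit had a median of -0.50 with all filtered genes, -0.54 with no filter and 0.09 with upper-quartile factors, so the turns of Mcl1 and Bad there lie within shifts of all these genes. The cause of these shifts was not tested. Deviations from group means correlated at -0.18, 0.14 and -0.37 between libraries of the same number, 1, 2 and 3. Between libraries of unlike number they correlated at -0.196 to 0.323. With 3 libraries in each group, these values cannot decide whether replicate numbers pair the libraries. The replicate block called 0 genes and left Bcl2l11 at 1.14 (edgeR adjusted p 0.236). For the blocked ratios an exact permutation test flipped signs within same-numbered pairs, and its p was 0.5 to 0.75. With 3 pairs the p of that test cannot fall under 0.05, so it cannot decide the question. Bak1 and Bmf are limited by depth over background.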
